A study of Mus musculus with 31 samples.

Results

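Hepatic transcripts were compared between mice at the end of a 16 h fast that differed in what they had been through before it. The 15 arrays described here were those of Fast-Fast-Fast mice (7 arrays), which had 2 earlier fasts of 16 h within 8 weeks, and of Fed-Fed-Fast mice (8 arrays), which had 0 earlier fasts and met their only fast on the last day. They were chosen by their labels from 31 arrays, of which the other 16 came from mice sampled fed, Fast-Fast-Fed (8 arrays) and Fed-Fed-Fed (8 arrays). All were male C57BL/6 mice aged 3 to 4 months, their livers were taken in the morning, and each array held liver RNA of 1 mouse. Mice with earlier fasts were allowed back to their usual growth curve after each one. The comparison asks whether earlier fasts leave a lasting mark on the transcripts of the fasted liver.

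In a fasted liver, falling insulin and rising glucagon, glucocorticoid and circulating fatty acids shift gene programmes. Fatty acids activate the nuclear receptor PPAR-alpha, which raises genes of fatty acid oxidation and ketone body production. Glucagon and glucocorticoid raise genes of glucose production, while genes of fat and cholesterol synthesis, driven by insulin and the SREBP transcription factors, go down. Earlier fasts could leave a trace in such genes or in others, and fasted mice that share the final fast and differ only in the earlier ones are the setting in which it would be read.

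The values are RMA log2 signals, on which 1 unit is a 2-fold difference, and 1 probe set stood for each of 22180 genes. A level is comparable between arrays for 1 gene and not between genes. Array medians were 2.01 to 2.07 over all 31 arrays, and precision is limited by how many arrays there are. Of 12 hepatocyte markers 11 were measured, and their mean signal lay between 11.61 and 11.72 in Fast-Fast-Fast livers and between 11.63 and 11.72 in Fed-Fed-Fast livers. Over all genes, Pearson's r between arrays was 0.9891 to 0.9929 within the 21 pairs of Fast-Fast-Fast arrays, 0.9865 to 0.9924 within the 28 pairs of Fed-Fed-Fast arrays, and 0.9871 to 0.9922 in the 56 pairs with 1 array of each. The array most like a given fasted array belonged to its own group for 4 of 7 Fast-Fast-Fast and 6 of 8 Fed-Fed-Fast arrays. Over all 465 pairs, fed arrays included, r was 0.9762 to 0.9929, so a high r over all genes does not show that 2 groups are alike. A set of 3 fasted arrays stood apart in some genes, namely Fast-Fast-Fast replicate 4, Fed-Fed-Fast replicate 4 and Fed-Fed-Fast replicate 5. Their genes are given further on, and results are repeated without them.

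No gene differed between Fast-Fast-Fast and Fed-Fed-Fast livers past the threshold. At a Benjamini-Hochberg adjusted p under 0.05 in limma, 0 of 22180 genes were called (0%), and the smallest adjusted p was 0.473. At an unadjusted p under 0.05 there were 996 genes (4.49%), of which 536 were higher (2.42%) and 460 lower (2.07%) after earlier fasts. The same limma analysis called 2569 genes (11.6%) for the final fast after 2 earlier fasts (Fast-Fast-Fast against Fast-Fast-Fed) and 2768 genes (12.5%) after none (Fed-Fed-Fast against Fed-Fed-Fed). These responses share the Fast-Fast-Fast and the Fed-Fed-Fast arrays with the history comparison, so their values are set beside it only to show scale.

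The differences between histories were small as well as uncalled. They ran from a log2 difference of -0.90 for Ass1 to 0.89 for Erdr1, with a median of 0.005 and a 1st and 99th percentile of -0.31 and 0.29. No gene differed by more than 2-fold, and 17 differed by more than 1.5-fold. By contrast, 301 genes differed more than 2-fold between fasted and fed livers after 2 earlier fasts, and 322 after none. The standard error of the history difference had a median of 0.103 over genes. The 95% confidence interval lay wholly within 2-fold in either direction for 22120 genes (99.7%) and within 1.5-fold for 21378 (96.4%). For the remaining 60 genes the interval reached 2-fold or beyond, so a 2-fold difference was not resolved there. Differences smaller than 1.5-fold remain possible for most genes, since a p that misses the threshold does not show that 2 histories act alike.

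**Figure D1:**
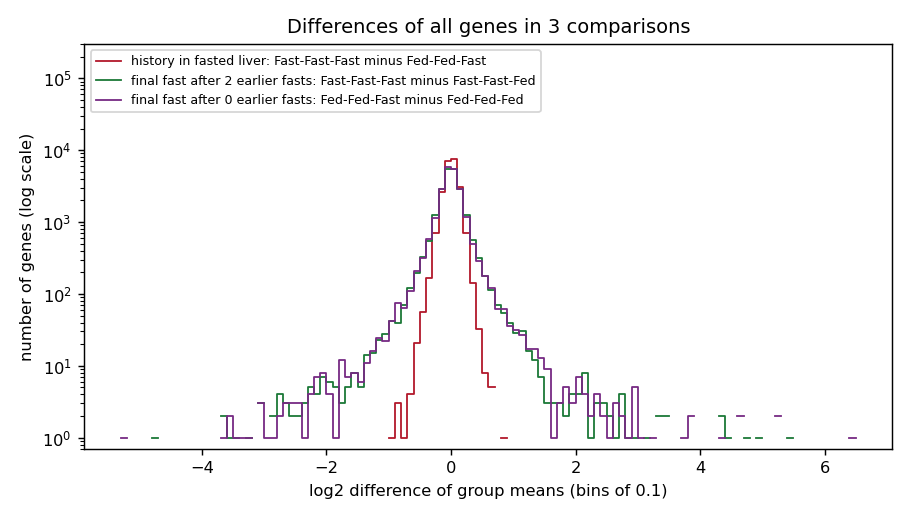
Number of genes (log axis) by log2 difference, for the history comparison in fasted liver (Fast-Fast-Fast minus Fed-Fed-Fast) and for the fasting responses of mice with 2 earlier fasts and of mice with none. The history differences stay between -0.90 and 0.89, while the responses to the final fast reach 5.50 and 6.50 for Cyp4a14.

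The median spread among mice differed little between histories. The SD over arrays had a median over genes of 0.185 in Fast-Fast-Fast and 0.188 in Fed-Fed-Fast livers, and 48% of genes had the larger SD in Fast-Fast-Fast livers.

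The genes with the largest fasting responses ended at overlapping levels in both histories. Cyp4a14, a fatty acid hydroxylase and PPAR-alpha target, had signals of 12.08, 12.15 and 12.22 (lowest, median and highest) in Fast-Fast-Fast livers, against 11.98, 12.14 and 12.33 in Fed-Fed-Fast livers. Its history difference was 0.01 (95% interval -1.08 to 1.10), beside fasting responses of 5.50 after 2 earlier fasts and 6.50 after none. The SD of Cyp4a14 was 0.05 in Fast-Fast-Fast and 0.11 in Fed-Fed-Fast livers, against 1.25 in Fast-Fast-Fed and 1.84 in Fed-Fed-Fed livers. Since the fit pools the spread of all groups, the interval is wider than the fasted arrays alone would give. Cidec, a lipid droplet protein, lay at 7.13, 8.08 and 8.81 in Fast-Fast-Fast livers and at 7.51, 7.87 and 9.58 in Fed-Fed-Fast livers. The highest of these is Fed-Fed-Fast replicate 5, and without it the difference of -0.003 becomes 0.22. Fgf21, a hormone the liver secretes during fasting, lay at 6.15, 7.09 and 7.29 after earlier fasts, against 5.35, 6.8 and 8.25 without them. Its Fed-Fed-Fast arrays enclose all Fast-Fast-Fast arrays, and the difference was -0.02 (interval -0.68 to 0.64). Cpt1a, the carnitine palmitoyltransferase that lets fatty acids into mitochondria, averaged 10.5 ± 0.09 in Fast-Fast-Fast and 10.59 ± 0.1 in Fed-Fed-Fast livers (SD, n = 7 and 8). That is a difference of -0.08, beside fasting responses of 1.30 after 2 earlier fasts and 1.36 after none.

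Genes that go down on fasting also overlapped between histories. Fasn, the fatty acid synthase, lay at 6.1, 6.93 and 7.27 in Fast-Fast-Fast livers, against 6.48, 7.15 and 7.51 in Fed-Fed-Fast livers. Its difference was -0.25 (interval -0.71 to 0.20), where the final fast itself gave -3.25 with 2 and -3.03 with 0 earlier fasts. Without the 3 arrays that stood apart the difference was -0.025. Srebf1, the transcription factor gene that drives fat synthesis, lay at 3.7, 4.5 and 4.6 after earlier fasts, against 3.3, 4.07 and 4.9 without. Hsd3b5, a male-biased steroid dehydrogenase, lay at 2.14, 3.12 and 5.25 in Fast-Fast-Fast livers and at 1.35, 3.54 and 4.2 in Fed-Fed-Fast livers. Arrays of both groups spread widely. The difference was 0.18 (interval -0.55 to 0.90), beside falls of 4.78 and 5.22 with the final fast on the log2 scale. The SD of Hsd3b5 was 1.07 and 0.97 in Fast-Fast-Fast and Fed-Fed-Fast livers, against 0.28 and 0.43 in Fast-Fast-Fed and Fed-Fed-Fed livers. Its pooled interval is therefore narrower than the fasted arrays alone would give. The sign of the Hsd3b5 difference turned to -0.096 without Fed-Fed-Fast replicate 5 and to -0.125 without Fast-Fast-Fast replicate 1, so no direction is given.

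Cdkn1a and Mt2 rose strongly with the final fast in both histories and varied widely among fasted mice. Cdkn1a, which encodes the cell cycle inhibitor p21, rose by 3.31 after 2 earlier fasts and by 2.84 after none. Its history difference was 0.39 (interval -0.33 to 1.10) with all arrays. Without Fed-Fed-Fast replicate 5, its highest array at 9.11, that difference was 0.70 with an unadjusted p of 0.0221 and was not called. Mt2, a metallothionein, rose by 4.34 and 4.63 in those responses. Its history difference was -0.35 (interval -1.13 to 0.43) and -0.16 without Fed-Fed-Fast replicate 5, with arrays from 7.24 to 10.28 in Fast-Fast-Fast and from 8.62 to 10.89 in Fed-Fed-Fast livers. Both intervals reach past 2-fold. In Fast-Fast-Fast and Fed-Fed-Fast livers the SD was 0.67 and 1.13 for Cdkn1a and 1.32 and 0.76 for Mt2. In Fast-Fast-Fed and Fed-Fed-Fed livers it was 0.29 and 0.6 for Cdkn1a and 0.51 and 0.46 for Mt2. Since the fit pools all groups, the intervals of these genes are narrower than the fasted arrays alone would give.

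**Figure D2:**
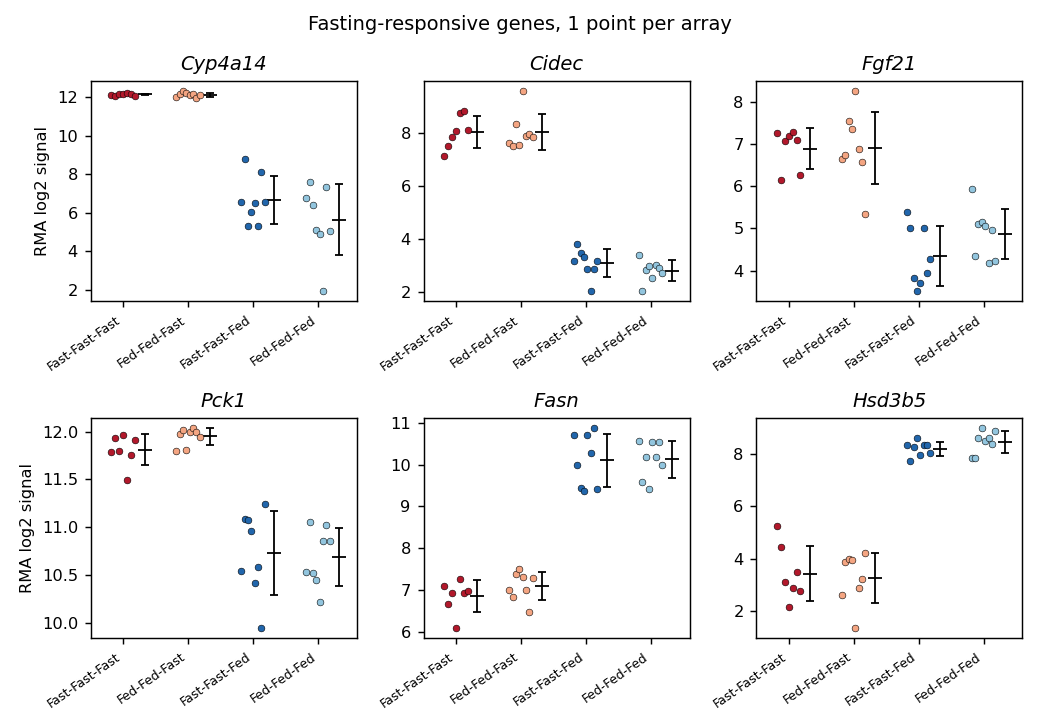
RMA log2 signal of Cyp4a14, Cidec, Fgf21, Pck1, Fasn and Hsd3b5 in every array, by group (points are mice, bars mean ± SD). Fast-Fast-Fast and Fed-Fed-Fast arrays overlap in all 6 genes; both fed groups are plotted to show the size of the response to the final fast.

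Genes of glucose production lay slightly lower after earlier fasts, none past the threshold. Of 17 listed, 15 were measured and 14 had a difference below 0, beside 10601 of all 22180 genes. An unadjusted p under 0.05 was found for 1 of them, and the list's median difference was -0.09 against 0.005 over all genes. Pck1, which encodes the enzyme that commits carbon to glucose, lay at 11.49, 11.8 and 11.96 in Fast-Fast-Fast livers, against 11.8, 11.98 and 12.04 in Fed-Fed-Fast livers. G6pc, the glucose-6-phosphatase that releases free glucose, lay at 10.33, 10.54 and 11.11, against 10.5, 10.81 and 11.21. The groups overlap for both, with differences of -0.14 (interval -0.43 to 0.14) and -0.22 (interval -0.53 to 0.08). Slc37a4, the transporter that carries glucose-6-phosphate to that enzyme, averaged 8.99 ± 0.26 after earlier fasts and 9.21 ± 0.26 without (SD, n = 7 and 8). Its difference of -0.22 was the 1 with an unadjusted p under 0.05. Without Fed-Fed-Fast replicate 5, 0 members of the list were at an unadjusted p under 0.05, and its median was -0.10. With the final fast, 11 members were called after 2 earlier fasts, all higher except Mdh1, beside 11.6% of all genes. After none, 12 were called, all higher, beside 12.5% of all genes. Medians over the list were 0.41 and 0.51, in that order. Members of a list are measured on the same arrays and are not independent, so the count of signs carries no p. In fed liver the history difference of the list had a median of 0.001.

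Fatty acid oxidation genes hardly differed. All 25 measured genes of 26 had 95% intervals within 1.5-fold, with a median difference of -0.011 and a range from -0.16 for Eci1 to 0.11 for Hadhb. Eci1, an enoyl-CoA isomerase that prepares unsaturated fatty acids for oxidation, lay at 8.77, 8.93 and 9.05 in Fast-Fast-Fast livers, against 8.89, 9.04 and 9.35 in Fed-Fed-Fast livers. It was the only member with an unadjusted p under 0.05, and the groups overlap. Without Fed-Fed-Fast replicate 5 the Eci1 difference was -0.16, with an unadjusted p of 0.0537 in limma. The list's median response to the final fast was 0.80 with 2 earlier fasts and 0.82 with 0. The 22 measured PPAR-alpha targets had a median difference of 0.02 and 0 members at an unadjusted p under 0.05, beside median responses of 1.98 and 1.88. Their median difference was 0.07 without Fed-Fed-Fast replicate 5, and 0.155 without the 3 arrays that stood apart, with 1 member then higher at an unadjusted p under 0.05.

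Of 6 measured ketone body genes, 3 lay above 0 and 3 below, with a median difference of 0.021. Only Slc16a1 had an unadjusted p under 0.05. Slc16a1, a monocarboxylate transporter that moves ketone bodies and lactate, lay at 8.97, 9.26 and 9.47 in Fast-Fast-Fast livers, against 8.76, 8.95 and 9.36 in Fed-Fed-Fast livers. Its difference of 0.23 (interval 0.05 to 0.41) was not called. The gene rose by 1.29 with the final fast after 2 earlier fasts and by 1.09 after 0.

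Among 22 measured genes of glycolysis and fat synthesis, the median difference was -0.023. Scd1, the stearoyl-CoA desaturase, lay at 11.23, 11.6 and 11.71 in Fast-Fast-Fast livers, against 10.97, 11.1 and 11.62 in Fed-Fed-Fast livers. Its difference was 0.28 (interval 0.06 to 0.49). With the final fast Scd1 changed by -0.24 after 2 earlier fasts, which was not called, and fell by 0.66 after 0 earlier fasts. The interaction of history and final state, which tests the gap between those values, was 0.42 with an adjusted p of 0.999 in limma. Cholesterol synthesis and uptake genes had a median difference of -0.003 over 18 measured members and 0 at an unadjusted p under 0.05. Their median response to the final fast was -2.00 with 2 earlier fasts and -2.15 with 0.

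Glucocorticoid-responsive genes held the smallest p of all. Of 17 measured members, 12 lay below 0, beside 10601 of all 22180 genes. The list's median difference was -0.17, and 2 members had an unadjusted p under 0.05. Cebpd, a transcription factor of the C/EBP family induced by glucocorticoid and in the acute phase, lay at 2.36, 2.64 and 2.77 in Fast-Fast-Fast livers, against 2.86, 3.09 and 3.66 in Fed-Fed-Fast livers. Every Fast-Fast-Fast array was below every Fed-Fed-Fast array, as in 5 of all 22180 genes (0.0225%). The difference was -0.55 (SE 0.11, interval -0.79 to -0.32), with an unadjusted p of 2.93e-05 and an adjusted p of 0.473 in limma over all genes. Without Fed-Fed-Fast replicate 5 it was -0.48. In fed liver the history difference of Cebpd was 0.10, and the interaction of -0.65 had an adjusted p of 0.63, so a difference between fed and fasted liver was not shown. Cebpb, its better known relative in liver, lay at 5.75, 6.41 and 7.07 after earlier fasts, against 5.85, 6.87 and 7.29 without. The groups overlap and the difference was -0.35 (interval -0.70 to -0.00078). Without Fed-Fed-Fast replicate 5 the Cebpb difference was -0.29, with an unadjusted p of 0.111 in limma.

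Other genes of that list went both ways. Gadd45g, a growth arrest gene, had a difference of -0.59, Per1, a clock gene that glucocorticoid induces, one of -0.39, and Cdkn1a the 0.39 given above, none at an unadjusted p under 0.05 with all arrays. Without Fed-Fed-Fast replicate 5, Gadd45g had -0.34 and Per1 -0.22. In fed liver Gadd45g had a history difference of 1.69, and its interaction of -2.29 was not called; that pair of values was singled out after it was seen. The mean of the list lay between 6.46 and 7.42 in Fast-Fast-Fast livers and between 6.64 and 7.70 in Fed-Fed-Fast livers. Its highest arrays were Fast-Fast-Fast replicate 4 and Fed-Fed-Fast replicate 5.

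Immediate early genes, which answer stimuli within minutes, had a median difference of -0.13 over 19 measured members. Zfp36, whose protein tristetraprolin speeds the decay of cytokine mRNAs, lay at 6.57, 7.11 and 7.99 in Fast-Fast-Fast livers, against 7.17, 7.79 and 8.19 in Fed-Fed-Fast livers. Its difference of -0.57 (interval -0.97 to -0.16) was the only one of the list at an unadjusted p under 0.05. Nr4a1, an orphan nuclear receptor gene, lay at 2.76, 3.95 and 5.28 in Fast-Fast-Fast livers and at 2.56, 3.62 and 8.37 in Fed-Fed-Fast livers. The highest value is again Fed-Fed-Fast replicate 5, and without that array Nr4a1 had a difference of 0.075 and the list a median of -0.058.

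Defence genes were mostly at or below 0. Of 16 measured interferon response genes, 12 lay below 0, beside 10601 of all 22180 genes. Their median was -0.091, with 2 at an unadjusted p under 0.05. Without the 3 arrays that stood apart the median was -0.031. Mx2, an interferon-induced antiviral GTPase, lay at 3.3, 3.61 and 3.95 in Fast-Fast-Fast livers, against 3.8, 4.06 and 4.55 in Fed-Fed-Fast livers. Its difference of -0.54 (interval -0.84 to -0.25) had an adjusted p of 0.848 in limma, and its arrays overlap a little. Ifit1, which binds viral RNA, had a difference of -0.41 (interval -0.76 to -0.05). Orm3, an acute phase orosomucoid whose probes may also bind transcripts of near-identical paralogs, averaged 3.44 ± 0.6 after earlier fasts and 4.06 ± 0.64 without (SD, n = 7 and 8), and the acute phase list as a whole had a median of -0.009.

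Heat shock proteins had differences mostly above 0 with all arrays. Of 9 measured members, 7 lay above 0, with a median difference of 0.16, beside 11579 of all 22180 genes above 0. Hspa1a, an inducible HSP70 chaperone with a near-identical paralog, lay at 3.21, 3.68 and 4.63 in Fast-Fast-Fast livers, against 2.23, 3.1 and 4.29 in Fed-Fed-Fast livers. The difference was 0.58 (interval 0.06 to 1.11), and the arrays overlap widely. It was 0.45 with an unadjusted p of 0.0851 without Fed-Fed-Fast replicate 5. Without the 3 arrays that stood apart, Hspa1a had 0.36 and the list a median of 0.025, with 0 members at an unadjusted p under 0.05.

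Antigen presentation genes had a median difference of -0.082, with 8 of 12 measured members below 0 and 0 at an unadjusted p under 0.05. Over all genes, 10601 of 22180 lay below 0. The 18 clock genes had a median of -0.045 with members in both directions, from -0.50 for Ciart to 0.28 for Arntl, and 8 of the 18 had intervals within 1.5-fold. Median differences were 0.012 for 37 chromatin modifiers, 0.071 for 20 cell cycle genes, -0.039 for 21 ribosomal protein genes and 0.006 for 24 respiratory chain genes. Chromatin modifiers, which write, read or erase marks on histones and DNA, all had intervals within 1.5-fold. Ezh2, the methyltransferase of Polycomb repressive complex 2, had a difference of 0.18, Hdac5, a histone deacetylase, one of 0.20, and Uhrf1, which helps maintain DNA methylation, one of -0.24. These were the 3 chromatin modifiers of 37 at an unadjusted p under 0.05. Trib3, a stress-induced pseudokinase that dampens insulin signalling, had a difference of -0.37 (interval -0.68 to -0.07). In cell cycle genes, Ccna2, an S phase cyclin, had the highest difference at 0.30. Cyp7a1, the rate-limiting enzyme of bile acid synthesis, had a history difference of 0.32 (interval -0.34 to 0.99) in fasted liver, or 0.18 without Fed-Fed-Fast replicate 5, and -1.04 in fed liver. The interaction for Cyp7a1 was 1.37 with an adjusted p of 0.999 in limma.

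**Figure D3:**
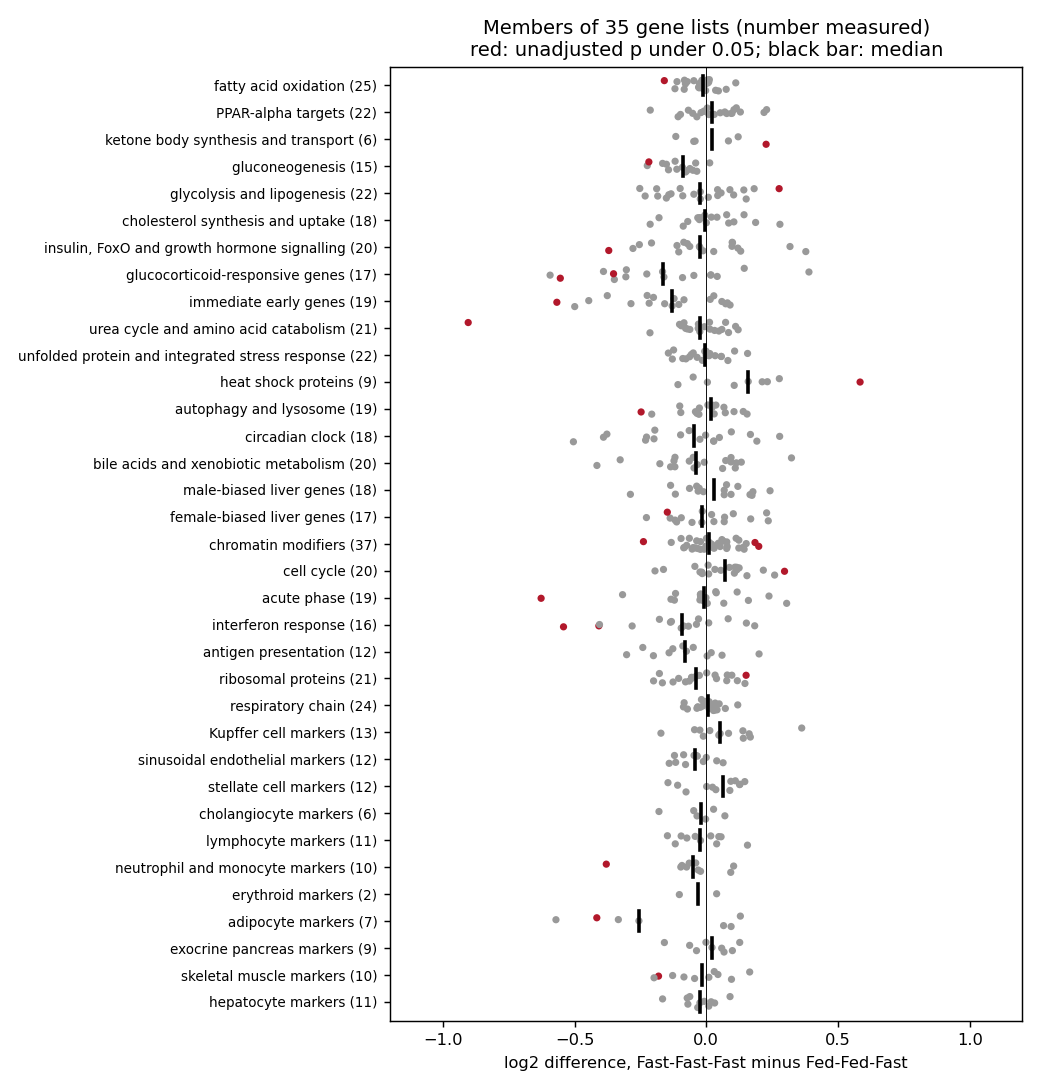
Log2 difference, Fast-Fast-Fast minus Fed-Fed-Fast, of every measured member of each gene list (points, red at an unadjusted p under 0.05, black bar the list's median). No member of any list was called; the red points number 23 distinct genes of 549.

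Of the 549 distinct list genes measured, 0 were called and 23 had an unadjusted p under 0.05, beside 996 of the 22180 genes tested. In bulk liver, fewer cells of a type and less RNA per cell cannot be told apart. Marker lists of other cells gave median differences of 0.053 for 13 Kupffer cell genes, -0.042 for 12 sinusoidal endothelial genes, 0.063 for 12 stellate cell genes, -0.019 for 6 cholangiocyte genes and -0.022 for 11 lymphocyte genes. None of those lists had a member at an unadjusted p under 0.05. Neutrophil and monocyte markers had a median of -0.052 with 1 such member, the monocyte gene Ly6c2 at -0.38, and skeletal muscle markers one of -0.017 with 1 such member, Tnnt3 at -0.18. The exocrine pancreas list had a median of 0.022 and the erythroid list, with 2 of 9 genes measured, one of -0.031. These lists and those of lymphocytes, neutrophils and monocytes, and skeletal muscle were dim. The mean signal of each had a median over arrays of 1.55 to 1.88 in both fasted groups. Ly6c2 and Tnnt3 averaged 1.9 or less in both. For dim markers a median near 0 does not show that the content of those cells was the same. Adipocyte markers had the lowest median of the marker lists, at -0.26 over 7 genes, with 1 member at an unadjusted p under 0.05, Plin1, a lipid droplet protein, at -0.42.

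Outside the lists, the genes with the smallest p came from many functions. Rcc2, a regulator of chromosome segregation, lay at 4.5, 4.72 and 4.9 in Fast-Fast-Fast livers, against 3.94, 4.36 and 4.46 in Fed-Fed-Fast livers. Its groups do not overlap, as in 8 of all 22180 genes (0.0361%). The difference was 0.41 (interval 0.23 to 0.59, adjusted p 0.507 in limma). Rcc1, the nucleotide exchange factor of Ran, was instead lower at -0.47 (interval -0.72 to -0.21). Hhex, a homeobox factor of liver development, lay at 5.92, 6.3 and 6.85 in Fast-Fast-Fast livers, against 5.09, 5.53 and 6.3 in Fed-Fed-Fast livers. The difference of 0.66 (interval 0.31 to 1.02) stands beside a history difference of 0.36 in fed liver. Lonrf3, a RING finger protein, lay at 2.76, 3.1 and 3.53 after earlier fasts, against 2.25, 2.49 and 2.94 without, a difference of 0.62 (interval 0.29 to 0.95). Ngfr, the p75 neurotrophin receptor, lay at 2.37, 2.94 and 3.36, against 3.24, 3.46 and 4.25, a difference of -0.65 (interval -1.002 to -0.29). Erdr1 had the highest difference, with 8.76, 9.24 and 9.6 in Fast-Fast-Fast livers against 7.46, 8.26 and 9.29 in Fed-Fed-Fast livers. It is a multi-copy gene, its 2 probe sets may bind transcripts of several copies, and its 0.89 (interval 0.40 to 1.37) is uncertain for that reason. Each of Hhex, Lonrf3, Ngfr and Erdr1 had an adjusted p of 0.848 in limma, and their groups overlap.

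**Figure D4:**
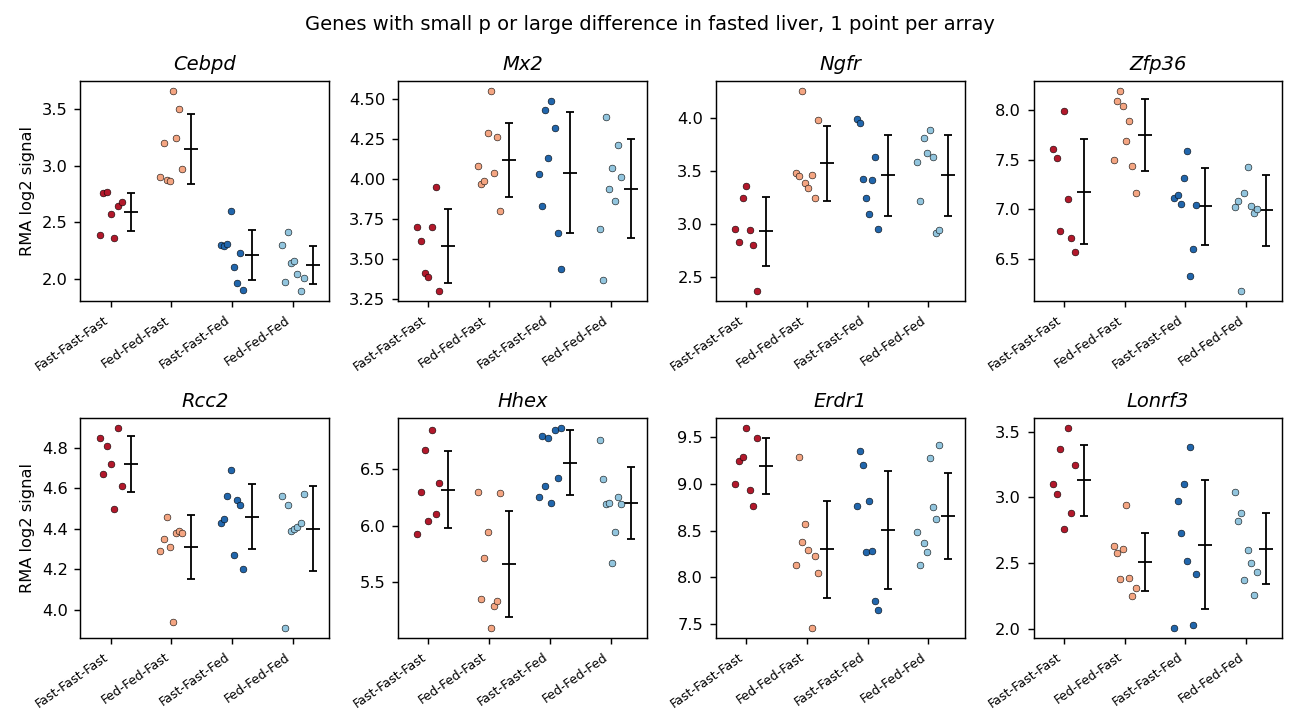
RMA log2 signal of Cebpd, Mx2, Ngfr, Zfp36, Rcc2, Hhex, Erdr1 and Lonrf3 in every array, by group (points are mice, bars mean ± SD). Fast-Fast-Fast and Fed-Fed-Fast arrays separate fully in Cebpd and Rcc2 and overlap in the other genes.

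Other genes with small p were Asic1, an acid-sensing ion channel, at -0.34, Prss48, a serine protease, at -0.48, Snhg14, a snoRNA host gene, at -0.37, Foxf2, a forkhead factor, at -0.30 and Tnfsf8, the CD30 ligand, at -0.22. Higher ones were Ccnjl, a cyclin J-like gene, at 0.39, Zbed4 at 0.41, Mapk4, an atypical MAP kinase, at 0.55, Fbxo44, an F-box protein, at 0.46, Reg2 at 0.27, Ttc9c at 0.30, Ccdc171 at 0.33 and Vps37b, an ESCRT subunit, at 0.42. Also among the lowest p were 3 olfactory receptor genes, Olfr145 at -0.36, Olfr739 at -0.44 and Olfr763 at -0.35. Olfr145, Olfr739 and Olfr763 had mean signals of 2.07 or less in every group, and no detection limit was used here. Reg2, Tnfsf8, Asic1, Foxf2, Snhg14 and Ccnjl had mean signals of 1.87 or less in every group, below the median of every array. Whether these genes were expressed in the livers was not tested. Genes with a mean above 4 made up 29% of the 996 genes and 35.5% of all genes, so the genes with small p were more often dim.

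In 8 genes (0.0361%) no Fast-Fast-Fast array overlapped a Fed-Fed-Fast array. Of these, 3 were higher after earlier fasts (0.0135%), Rcc2, Ccdc174 and the zinc finger gene Zmym1. The other 5 were lower (0.0225%), Cebpd, Asic1, Olfr145, Olfr739 and Scamp2, a secretory carrier membrane protein. The gaps were narrow, and how many genes chance alone would separate was not tested. For Scamp2 the Fast-Fast-Fast arrays ended at 6.09 and the Fed-Fed-Fast arrays began at 6.15, and for Ccdc174 the Fast-Fast-Fast arrays began at 4.0 and the Fed-Fed-Fast arrays ended at 3.98.

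The widest differences belonged to genes that vary among mice. Ass1, the argininosuccinate synthase of the urea cycle, lay at 4.45, 5.01 and 7.42 in Fast-Fast-Fast livers, against 5.79, 6.15 and 7.5 in Fed-Fed-Fast livers. One array of each group, Fast-Fast-Fast replicate 4 and Fed-Fed-Fast replicate 5, is far above the rest of its group. Its difference was -0.90 (interval -1.55 to -0.26), not called, and -1.06 without the 3 arrays that stood apart. The SD of Ass1 was 1.07 in Fast-Fast-Fast livers and 0.48 to 0.53 in the other groups. Its pooled interval is therefore narrower than the fasted arrays alone would give. Rgs16, a brake on G protein signalling, lay at 5.11, 6.97 and 7.78 after earlier fasts, against 6.74, 7.62 and 8.65 without, and Hnf4aos, named as an antisense transcript of Hnf4a, averaged 4.07 ± 0.65 against 4.81 ± 0.78 (SD, n = 7 and 8). H2-Bl, a class I histocompatibility gene with close paralogs, had a difference of 0.65, Obp2a, an odorant-binding lipocalin, one of 0.66, Zfp455, a zinc finger gene, one of 0.59 and Agap2, a GTPase-activating protein, one of -0.57. All groups overlap in these genes.

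Of the lower differences, those of Star and Cyp11b1 rest on 1 array. Star, which carries cholesterol into mitochondria for steroid synthesis, had a median of 1.94 in Fast-Fast-Fast and 2.22 in Fed-Fed-Fast livers, but 7.12 in Fed-Fed-Fast replicate 4. Cyp11b1, the last enzyme of corticosterone synthesis in the adrenal cortex, had medians of 1.15 and 1.27 and reached 7.57 in that array. Their differences of -0.84 and -0.81 became -0.22 and -0.012 without that array. The Plin1 difference of -0.42 became -0.27.

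The 3 arrays that stood apart did so in different genes. Fed-Fed-Fast replicate 4 was more than 2-fold above all others of its group in 27 genes and below them in 0. They include the adrenal genes Cyp11a1 at 7.58, Hsd3b1 at 6.35, Cyp21a1 at 5.82 and Star, the chromaffin genes Th at 5.07 and Chga at 5.95, and the brown fat genes Ucp1 at 6.78 and Cidea at 5.48. Over 13 genes of steroid hormone and catecholamine synthesis, a list chosen after these values were seen, the mean signal was 1.46 to 1.55 in Fast-Fast-Fast livers and 1.43 to 1.62 in the other 7 Fed-Fed-Fast livers, against 4.97 in that array. The mean of the 7 adipocyte markers measured of 8 was 3.39 to 3.92 in Fast-Fast-Fast livers and 3.39 to 3.79 in the other Fed-Fed-Fast livers, against 4.97 in replicate 4. Fabp4, a fatty acid-binding protein of adipocytes, reached 7.95 there, while the highest Fast-Fast-Fast array had 5.2. The part of other tissue in this liver sample was not tested.

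Fed-Fed-Fast replicate 5 was more than 2-fold above all others of its group in 39 genes and below them in 15. Among the 39 were the immediate early genes Nr4a1 and Jun at 8.37 and 8.46, the CREB-regulated kinase Sik1 at 8.58, the leptin receptor Lepr at 8.17, and Rasgef1b at 7.5. Fast-Fast-Fast replicate 4 stood above its group in 33 genes and below in 13. It shared high values of Lepr, Rasgef1b and Ass1 with Fed-Fed-Fast replicate 5, at 8.37, 7.53 and 7.42, and was the highest fasted array in Tff3, a trefoil peptide, at 7.77 and Esm1, an endothelial proteoglycan, at 4.18. For Tff3, Fed-Fed-Fast replicate 1 also stood above its group, at 6.65. The genes of single arrays were chosen after their values were seen.

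**Figure D5:**
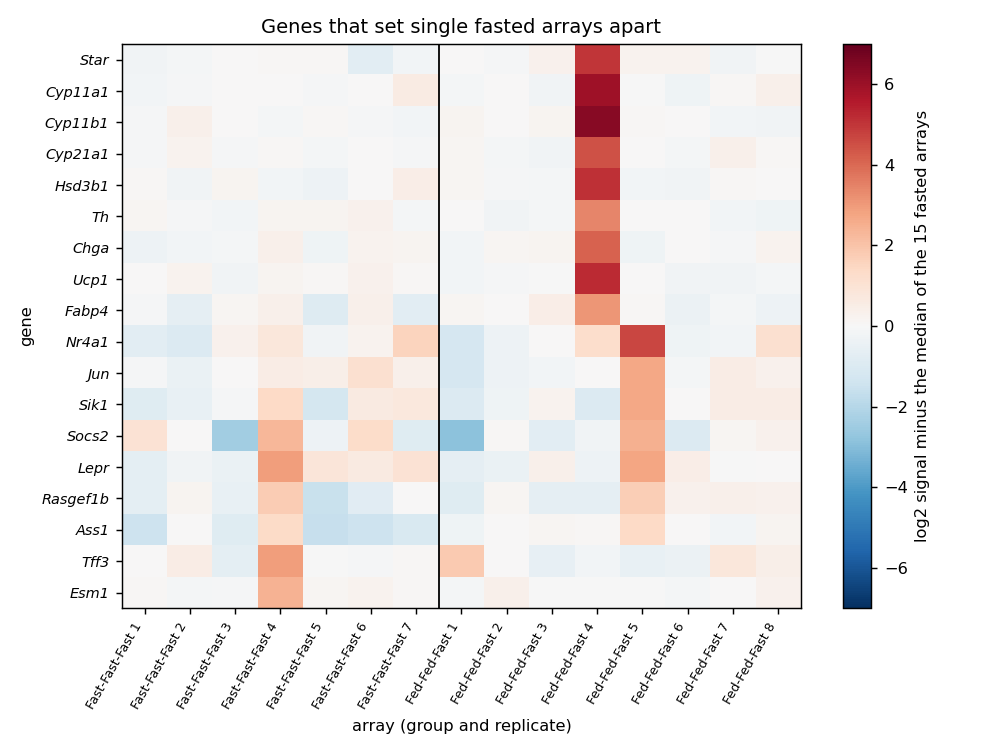
Heat map of RMA log2 signal minus the gene's median over fasted arrays, for genes high in Fast-Fast-Fast replicate 4, Fed-Fed-Fast replicate 4 or Fed-Fed-Fast replicate 5 (rows are genes, columns the 7 Fast-Fast-Fast and 8 Fed-Fed-Fast arrays). The adrenal and brown fat genes are raised in Fed-Fed-Fast replicate 4 alone, Lepr, Rasgef1b and Ass1 in Fast-Fast-Fast replicate 4 and Fed-Fed-Fast replicate 5.

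Leaving out Fed-Fed-Fast replicate 5 left the outcome at 0 genes called (0%). At an unadjusted p under 0.05 there were then 1034 genes (4.66%), of which 768 were among the 996 found with all arrays. None of the 996 changed sign. They were picked by their p on arrays that mostly stayed in, so the kept signs are not independent support. The smallest adjusted p became 0.106, for 1700025C18Rik, a gene known only by its clone name and chosen here after its value was seen. Its signals were 1.65, 2.2 and 2.37 in Fast-Fast-Fast livers, against 1.36, 1.6 and 2.07 in Fed-Fed-Fast livers, a difference of 0.51 with all arrays. The interval lay within 2-fold for 22112 genes and within 1.5-fold for 21294. Without all 3 arrays that stood apart, a choice made after seeing the data, 0 genes were called (0%), 1086 had an unadjusted p under 0.05 (4.9%) and the smallest adjusted p was 0.447. The adipocyte median was then -0.12, against -0.26 with every array.

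The same history was compared in fed liver, which shares no array with the comparison in fasted liver. Both come from 1 fit with a pooled variance per gene, so a gene with a low pooled variance can have a small p in both, and the counts of shared genes are not independent readings. Fast-Fast-Fed and Fed-Fed-Fed livers differed in 0 called genes (0%), with 1245 at an unadjusted p under 0.05 (5.61%) and a smallest adjusted p of 0.373 in limma. An unadjusted p under 0.05 in both states was found for 67 genes, which is 6.73% of the fasted list and 5.38% of the fed list. Of these, 35 had the same sign. Across all genes, which are not independent replicates, the differences in fasted and fed liver correlated with Pearson's r of 0.034 and Spearman's rho of 0.044. Of the 996 genes of fasted liver, 53.5% had the same sign in fed liver, against 51.7% of all genes. The interaction of history and final state called 0 genes (0%), with 1023 at an unadjusted p under 0.05 (4.61%) and a smallest adjusted p of 0.135. Probe sets that name several genes or none, tested apart in fasted liver, gave 0 called of 1814 and 0 called of 16010, with 81 and 718 at an unadjusted p under 0.05.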

How the data were processed

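Per the submitters' processing notes, the arrays were processed with RMA, and the values the authors deposited are log2 signals. RMA subtracts background, makes the arrays' distributions equal and combines probes into probe sets. No detection calls were used. A single symbol is named by the platform annotation for 23521 of the 41345 probe sets, while 1814 carry several and 16010 carry none. Where a gene had more than 1 probe set (1082 genes), the one with the highest mean represented it, which gave 22180 genes.

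All 31 arrays entered 1 fit of group means in limma 3.58.1 (R 4.3.3, data.table package 1.17.8), with moderated variances and 2-sided tests. Calls required an adjusted p under 0.05 by Benjamini-Hochberg over all genes. Figures used matplotlib 3.10.9 in Python 3.11.15. The procedure was also run on simulated data with independent normal noise and, for each gene, a spread common to all groups. That run cannot show how the fit behaves with unequal group spreads or arrays that stand apart. Same-numbered Fast-Fast-Fast and Fed-Fed-Fast arrays deviated together little (r of -0.064 to 0.116 over 7 pairs), and the main fit did not pair them. A low r cannot show that the numbers mark no shared condition.

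Members and lists were chosen with earlier results of these data known. Named genes are those with the 12 smallest p in each direction, the 5 largest differences in each direction whatever their p and the 5 among those with an unadjusted p under 0.05, up to 3 members of each list with an unadjusted p under 0.05, and 12 fasting genes. Predicted, numbered and small RNA genes were left out. Genes at the ends of a list's range, genes without overlap and genes of single arrays were named after their values were seen. RefSeq (GRCm38.p6) held the Entrez identifier of 21994 of the genes, and none of these symbols had changed. No coordinates are printed, since the platform annotation names no build. Alternatives changed the normalization, variance model, array weights, probe sets, dim gene filter, block and arrays.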

Additional observations from a re-analysis of the deposited data

Results flagged for a closer look

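Of 152 groups of values tested for a single array far from its group, 19 had one, 6 in Fast-Fast-Fast and 13 in Fed-Fed-Fast livers. Chance alone flags about 1 in 20 independent groups. Several of these genes were chosen after their values were seen or for a wide difference, and the groups share arrays. The 19 can therefore not be set against that rate. Fed-Fed-Fast replicate 4 was high in Cyp11a1 at 7.58, Cyp11b1 at 7.57, Star at 7.12, Plin1 at 3.22 and Mapk4 at 2.3, and the mean of the 13 steroid hormone and catecholamine synthesis genes, chosen after the values were seen, was 4.97 there. The next array of its group had 1.96 for Cyp11a1, 1.42 for Cyp11b1 and 2.38 for Star. Fed-Fed-Fast replicate 5 was high in Ass1 at 7.5, Cidec at 9.58, Olfr145 at 2.48 and the mean of the immediate early genes at 4.61, and low in Rcc2 at 3.94.

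Other arrays stood apart in 1 or 2 genes each. Fast-Fast-Fast replicate 4 was high in G6pc at 11.11, and Fast-Fast-Fast replicate 7 in Cyp11a1 at 2.23 and Uhrf1 at 2.54. Fast-Fast-Fast replicate 5 was low in Pck1 at 11.49. Fast-Fast-Fast replicate 6 was low in Star at 1.35 and in 1700025C18Rik at 1.65. Fed-Fed-Fast replicate 6 was high in Hdac5 at 5.99, and Fed-Fed-Fast replicate 2 was low in Rcc1 at 2.99.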

How the results depend on the processing

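The count of 0 called genes in fasted liver was also 0 under every other normalization, variance model, array weighting, choice of probe sets and dim gene filter tried on all arrays. Leaving out 1 array gave 0 to 1 called genes, with 936 to 1100 at an unadjusted p under 0.05. The 1 gene was 1700025C18Rik without Fast-Fast-Fast replicate 6 (difference 0.59, adjusted p 0.0429 in limma, against 0.51 and 0.473 with all arrays). The interaction gave 0 to 1, which was 1700025C18Rik without Fast-Fast-Fast replicate 6 and Angel1 without Fed-Fed-Fast replicate 3, and 1 (Arhgap31, -0.89, adjusted p 0.0487) without the 3 arrays that stood apart. History in fed liver gave 0 to 1, which was Rnd3 without Fast-Fast-Fed replicate 1 and Zc2hc1c without Fed-Fed-Fed replicate 4. With the replicate block, 0 genes were called in fasted liver, in fed liver and in the interaction, as without it. The responses to the final fast after 2 and 0 earlier fasts then called 2584 and 2812 genes, against 2569 and 2768 without the block. Genes without overlap numbered 11 to 17 with 1 array left out, 2 among the 7863 genes above a mean of 4, and 53 without the 3 arrays. How many genes separate by chance depends on the numbers of arrays and genes. These counts can therefore not be set against the count with all arrays. Of the 7863 genes above a mean of 4, 7825 and 7571 had intervals within 2-fold and 1.5-fold. All 54 named genes with an unadjusted p under 0.05 kept their sign under every alternative that held them. The dim gene filter held only those with a mean above 4. Most were named for their p or difference on these same arrays, so a kept sign is not independent support. Of the 72 named genes, 66 kept their sign under every alternative that held them. Cyp4a14 had -0.002 under cyclic loess, -0.025 with the replicate block and -0.013 to 0.036 with 1 array left out. Cidec had 0.036 and Fgf21 0.043 with array weights; with 1 array left out they ranged over -0.132 to 0.218 and -0.243 to 0.171, Hsd3b5 over -0.125 to 0.393 and Cyp11a1 over -0.809 to 0.087. Without the 3 arrays Cidec had 0.165, Fgf21 0.227, Cyp11a1 0.093 and Cyp11b1 0.021. Single arrays also moved Ezh2 to 0.12 without Fast-Fast-Fast replicate 3 and Wipi1 to -0.158 without Fed-Fed-Fast replicate 5, from 0.18 and -0.25. The cause was not tested.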

Other observations

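In fasted liver the most extreme history differences were smaller than in fed liver, while the 1st and 99th percentiles were close. Those percentiles were -0.31 and 0.29 in fasted liver and -0.30 and 0.31 in fed liver. There were 0 genes over 2-fold and 17 over 1.5-fold in fasted liver, against 8 and 33 in fed liver, where the log2 difference ran from -1.67 to 1.69 (Gadd45g). None of these genes was called in either state, and the difference in spread was not tested.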
